A study of Mus musculus with 15 samples.

Results

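The genes described here are those that carry Wnt and R-spondin signals to the cell surface: the Wnt ligands, the Frizzled receptors, the Lrp5 and Lrp6 co-receptors, the R-spondins and the Lgr receptors. They were chosen by name, 38 genes of the 22180 that the array table measures through a transcript cluster with a single gene symbol. The list holds 19 Wnt genes, 10 Frizzled genes, 2 Lrp genes, 4 R-spondins and 3 Lgr genes. Expression was measured on Affymetrix whole-transcript arrays in 15 mammary tumors of ErbB2KI mice, flash frozen when the animals had reached end burden. ErbB2KI names a knock-in at Erbb2, the receptor tyrosine kinase also called HER2. Every tumor carries it, and the labels tell the groups apart only by the genotype at Ctnnb1, the gene of beta-catenin. There were 5 tumors labelled Ctnnb1 wt/wt (WT), 5 labelled fl/wt (HET) and 5 labelled fl/fl (HOM), where fl stands for a floxed allele that Cre recombinase can delete. The design aims the deletion at mammary epithelium, so other cells of a floxed tumor keep the gene. The sources used here do not give the Cre line, its promoter, the strain or the age of the mice.

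Wnt proteins are lipid-modified secreted ligands that bind a Frizzled receptor together with Lrp5 or Lrp6. This halts the destruction of beta-catenin, which then enters the nucleus and works with Tcf and Lef factors. Some ligands, Wnt5a and Wnt11 among them, mostly signal without beta-catenin. R-spondins bind Lgr4, Lgr5 or Lgr6 and hold off Rnf43 and Znrf3, ligases that remove Frizzled from the cell surface. In the mammary gland, Wnt4 relays the progesterone signal, basal and stem-like cells depend on Wnt and R-spondin input, and Wnt1 was found as a gene that a mammary tumor virus activates.

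Values are log2 intensities as deposited, and 1 unit is a doubling of signal. Since probes differ in brightness, levels are compared between tumors for the same gene and never between genes. Of the 38 genes, 31 lay above the median of all clusters on their array in at least 5 tumors and were tested. Wnt3, Wnt8a, Wnt8b, Wnt10b, Wnt16, Fzd10 and Rspo3 did not pass, each lying above the array median in 0 to 4 tumors. A gene high in few tumors can therefore miss the filter, as Rspo3 did. Whether each tumor came from a mouse of its own is not in the labels, and p-values thus cover only the spread between these 15 tumors.

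Some tumors stand apart or go against their label. Ctnnb1 averaged 11.84 ± 0.385 in WT tumors, 11.50 ± 0.189 in HET tumors and 11.48 ± 0.334 in HOM tumors (SD, n = 5 each), with adjusted p-values of 0.448 for HET against WT and 1 for HOM against WT by limma. The tumor labelled WT 5 read 11.21, inside the range of 11.15 to 11.66 of the other 9 floxed tumors, and the tumor labelled HOM 5 read 12.01, among the other WT tumors at 11.71 to 12.10. Differences of the named members that moved by over 1.5 times without both tumors are given with that value in their paragraph or in the closing section. The tumor labelled HET 1 had the lowest epithelial marker mean, 7.46 over 15 genes, and a B and plasma cell marker mean of 9.90 over 6 genes. Skeletal muscle markers (7 genes) averaged 11.52 in HET 3 against at most 6.93 in the other HET tumors, and fibroblast markers (13 genes) ran from 6.88 in HET 5 to 11.38 in HET 4. The epithelial mean was 9.59 to 10.54 in WT and 9.76 to 10.58 in HOM but 7.46 to 10.71 in HET, where HET 1 and HET 4 (9.14) lay below the WT range. These are whole tumors, in which fewer cells of a type and less RNA per cell cannot be told apart.

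No gene of the set passed the test in any of the 3 comparisons. The member furthest from no difference was Lgr4, whose mean was lower in HET than in WT by 1.43 and lower in HOM than in WT by 0.76 on the log2 scale. HET tumors also had a lower mean of Fzd3 and Lrp5 and a higher mean of Wnt10a, each with overlapping groups and adjusted p-values of 0.273 to 0.29 in the limma fit. For HET against WT, 0 of 31 members were called at an adjusted p of 0.05, where 0.0140% of the 14243 genes tested were called. At an unadjusted p under 0.05 the fit marked 4 of the 31 members, a share close to the 13.4% of all genes. In HET the mean was higher for 19 of the 31 and lower for 12, with a median difference of 0.11 against -0.03 over all genes; without HET 4 that median was -0.05. Only Lgr4 had groups that did not overlap, being lower in HET, a pattern shown by 1.05% of all genes, while 0.534% did not overlap and were higher. Without HET 3, 49 genes were called in place of 2, Lgr4 among them as the single member, and without HET 5 the count was 18 with no member.

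HOM and WT tumors lay closer together. Here 0 of 31 members and 0% of all genes were called, and 1 member reached an unadjusted p under 0.05 beside 1.70% of all genes. The means of 16 members were higher and of 15 lower in HOM, with a median of 0.03 against -0.01 over all genes, and no member's groups failed to overlap, beside 0.112% of genes not overlapping and higher and 0.169% not overlapping and lower. Between HOM and HET, 0 of 31 members and 0% of all genes were called, with 4 members and 7.93% of all genes at an unadjusted p under 0.05. The HOM mean was the higher for 13 members and the lower for 18, with a median of -0.04 against 0.01 over all genes. Groups overlapped for all 31, where 0.611% of genes did not overlap and were higher and 0.414% were lower. Without HET 5, 3 genes were called, none of them a member. HOM against WT and HOM against HET share the HOM tumors, and both comparisons with WT share the WT tumors.

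**Figure D1:**
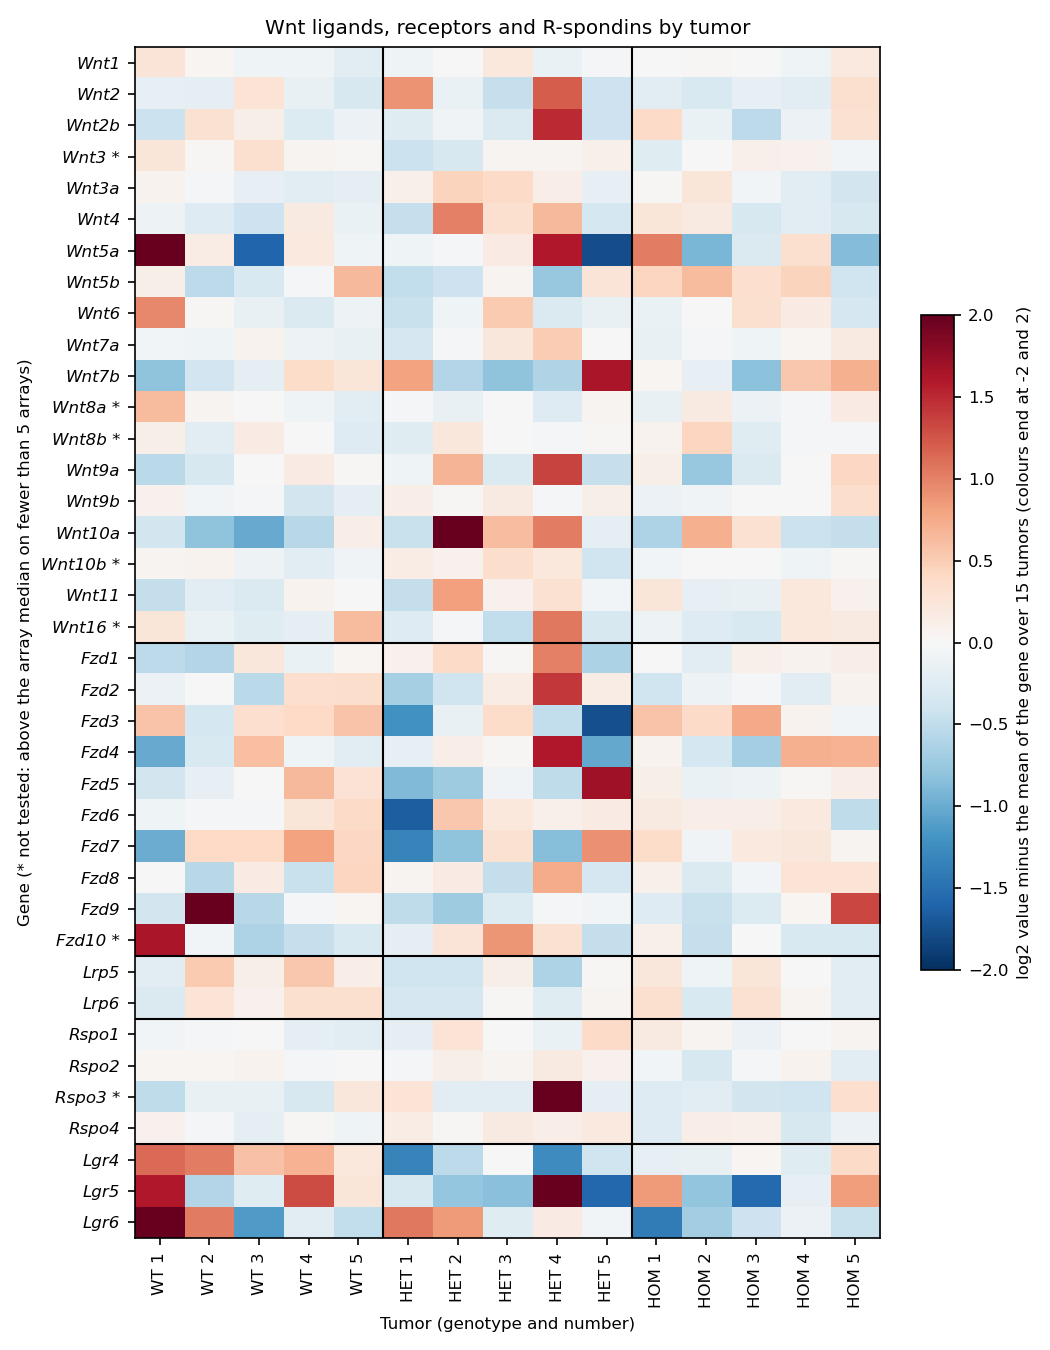
Log2 value of each of the 38 genes (rows, grouped by family) in each of the 15 tumors (columns, by genotype), shown as the deviation from the gene's mean over all tumors. Lgr4 is above its mean in the WT tumors, and HET 4 and HET 1 hold many of the extreme values.

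**Figure D2:**
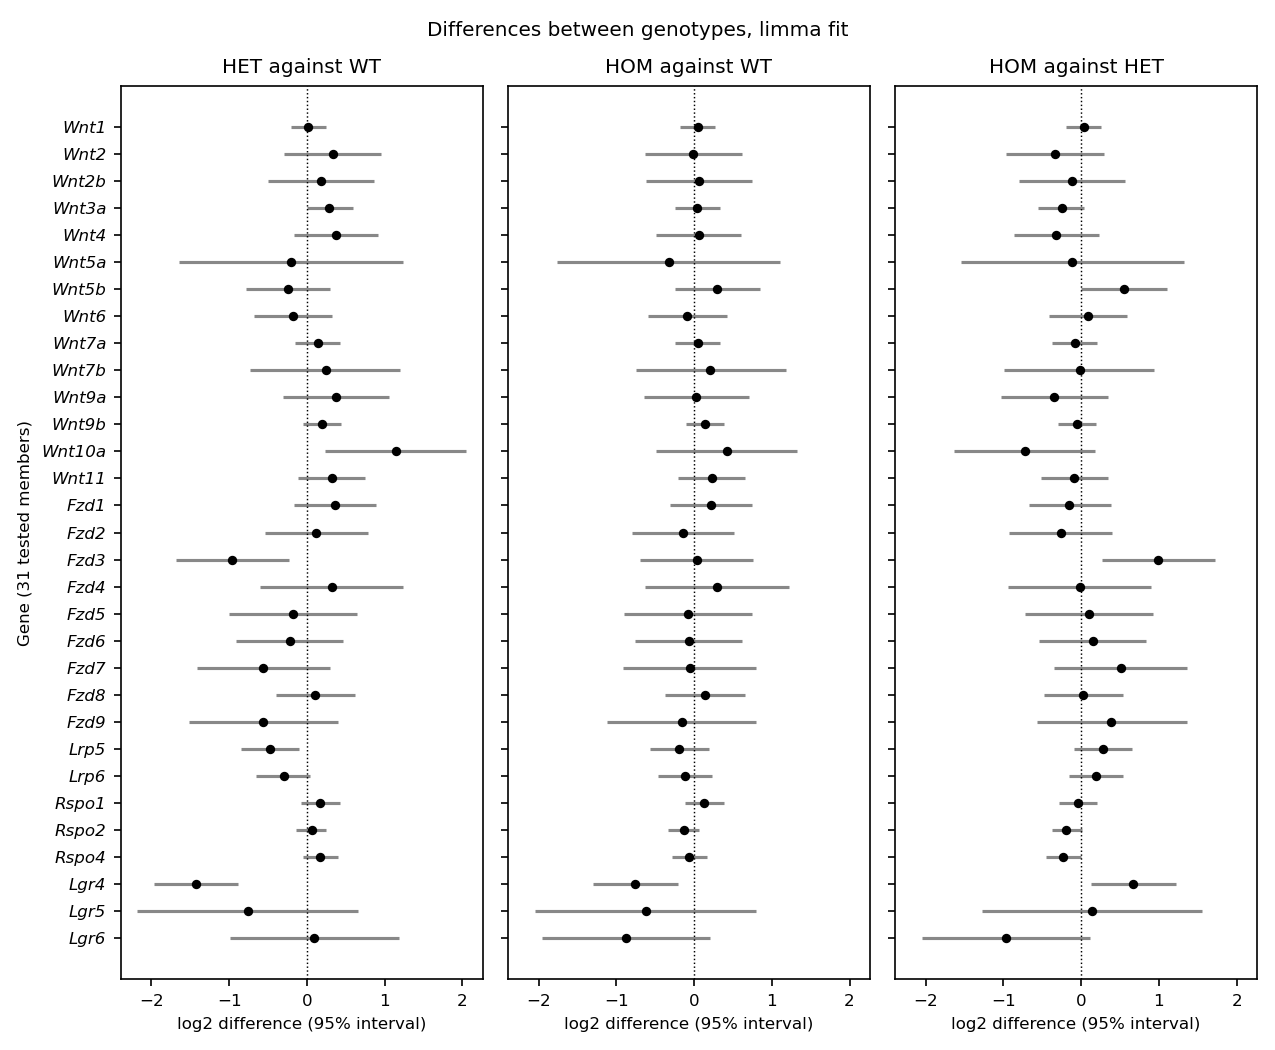
Difference in log2 value for each tested member in the 3 comparisons, with its 95% confidence interval from the limma fit over all genes. Most intervals cross 0, and Lgr4 lies furthest below 0 in HET against WT, at -1.43.

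Among the 14 tested Wnt ligands, 11 had a higher mean in HET than in WT, with a median difference of 0.22 (range -0.25 to 1.14). Of all genes tested, 45.5% had the higher mean in HET. Renewed quantile normalization or median centring of the arrays left 10 of 14 higher. Without HET 4, 10 of 14 were higher and the median was 0.09. In HOM, 11 of the 14 also had a higher mean than in WT (median 0.05), beside 47.2% of all genes. Renewed quantile normalization left 9 of 14 higher in HOM (median 0.02), as did median centring (median 0.01). Without the tumors labelled WT 5 and HOM 5 that count was 7 of 14. The largest difference between HET and WT among the ligands was that of Wnt10a, a ligand of the beta-catenin pathway known from hair and tooth development. Wnt10a read 7.14, 6.70, 6.49, 6.95 and 7.63 in the WT tumors 1 to 5. In the same order it read 7.06, 9.58, 8.11, 8.53 and 7.32 in HET, and 6.89, 8.21, 7.80, 7.07 and 7.02 in HOM. HET 2, HET 4 and HET 3 lay above every WT tumor, and HET 1 and HET 5 lay among them. The mean in HET exceeded that in WT by 1.14 (SE 0.423, 95% interval 0.23 to 2.05), 2.20-fold, with an unadjusted p of 0.0172 and an adjusted p of 0.29 by limma. Without HET 2 the difference was 0.77, and without HET 1 it was 1.41. HOM differed from WT by 0.42 and from HET by -0.72, with adjusted p-values of 1 and 0.679. Without the tumors labelled WT 5 and HOM 5 the first was 0.67, without HOM 2 it was 0.21, and without HET 2 the second was -0.36.

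Wnt5a, which mainly drives cell polarity and movement, had the widest range of all tested members, 3.97. It read 9.86, 7.81, 6.07, 7.86 and 7.58 in WT, 7.57, 7.62, 7.82, 9.26 and 5.89 in HET, and 8.69, 6.74, 7.37, 7.98 and 6.79 in HOM. Each genotype held high and low tumors, with WT 1 highest and HET 5 lowest of all. The genotype means were 7.84 ± 1.35, 7.63 ± 1.20 and 7.51 ± 0.828 (n = 5 each), and the interval of the HET difference from WT, -1.64 to 1.23, spanned more than a doubling either way. The sign of its difference turned in all 3 comparisons with array weights, to 0.11, 0.24 and 0.13.

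Wnt5b, a close relative of Wnt5a, was lowest in HET. It read 6.76, 6.11, 6.33, 6.61 and 7.29 in WT, 6.15, 6.22, 6.69, 5.88 and 6.90 in HET, and 7.07, 7.27, 6.97, 7.09 and 6.24 in HOM. Of the HOM tumors, 4 lay above every HET tumor and HOM 5 among them. HOM exceeded HET by 0.55 (SE 0.255, 95% interval 0.00 to 1.10), with an unadjusted p of 0.0482 and an adjusted p of 0.626 by limma. From WT it differed by 0.30 (adjusted p 1). Without the tumors labelled WT 5 and HOM 5 HOM exceeded HET by 0.72 (unadjusted p 0.00421, adjusted p 0.531) and WT by 0.65 (unadjusted p 0.0115, adjusted p 1).

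Wnt9b, needed in kidney and face development, lay near the array median throughout. It read 6.0, 5.86, 5.88, 5.54 and 5.72 in WT, 6.04, 5.93, 6.10, 5.89 and 6.03 in HET, and 5.79, 5.84, 5.91, 5.91 and 6.27 in HOM. The groups overlapped, and HOM differed from WT by 0.14 (unadjusted p 0.23, adjusted p 1 by limma). Without HOM 5 that difference was 0.06, and without the tumors labelled WT 5 and HOM 5 it was 0.04.

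The other ligands differed less between genotype means than between tumors of a genotype. Wnt4, the ligand that relays progesterone in the breast, had means of 6.65 ± 0.224, 7.03 ± 0.64 and 6.71 ± 0.273 in WT, HET and HOM, and its highest tumors were HET 2 at 7.81 and HET 4 at 7.44. Wnt7b, expressed in ductal epithelium, reached 9.41 in HET 5 and 8.59 in HET 1, while the other HET tumors read 6.98 to 7.19. Wnt2, made in stroma of several organs, was 7.11 in HET 4 and 6.80 in HET 1 but 5.44 to 5.77 in the remaining HET tumors. The interval of the HET difference from WT was -0.17 to 0.92 for Wnt4, -0.73 to 1.20 for Wnt7b and -0.30 to 0.95 for Wnt2. Wnt1, the mammary tumor virus target, stayed within 5.47 to 5.93 in all 15 tumors, and Wnt3a within 5.40 to 6.21. Both lay close to the array medians of 5.54 to 5.73. Of the 5 untested ligands, Wnt8b was highest at 4.90 and Wnt16 at 5.86, the latter in HET 4.

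Several further ligands peaked in HET tumors as well. Wnt9a averaged 6.66 ± 0.283, 7.03 ± 0.762 and 6.69 ± 0.447 and was highest in HET 4 at 8.15 and HET 2 at 7.48, where WT tumors read 6.26 to 6.96. Wnt11, a polarity ligand, averaged 6.50 ± 0.219, 6.82 ± 0.477 and 6.73 ± 0.195, with HET 2 highest at 7.51 and HET 1 joint lowest with WT 1 at 6.21. Wnt2b averaged 5.79 ± 0.296, 5.97 ± 0.794 and 5.85 ± 0.366, its mean in HET raised by HET 4 at 7.37. In each case the rest of the HET tumors lay inside or close to the WT range. The interval of HET against WT was -0.31 to 1.06 for Wnt9a, -0.11 to 0.75 for Wnt11 and -0.50 to 0.86 for Wnt2b. Wnt7a stayed between 5.66 and 6.50, and Wnt6 between 5.23 and 6.63.

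Neighbouring Wnt genes did not peak in the same tumor. In the gene order of assembly GRCm38.p6, Wnt6 and Wnt10a lie next to each other on chromosome 1, Wnt3 and Wnt9b as well as Wnt3a and Wnt9a on chromosome 11, and Wnt1 and Wnt10b on chromosome 15. In each of these 4 pairs the highest tumor differed between the neighbours. Wnt6, for instance, was highest in WT 1 at 6.63 and Wnt10a in HET 2 at 9.58. Wnt3 and Wnt10b were untested and peaked near the array median, at 5.64 and 5.79. With 15 tumors, unrelated genes also mostly differ in their highest tumor, so these pairs cannot show how neighbours relate.

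The 9 tested Frizzled receptors had no shared direction, with 4 higher and 5 lower means in HET than in WT and a median of -0.18. Without HET 4 the split was 1 higher and 8 lower, and without HET 1 it was 6 higher and 3 lower. Fzd3, a receptor used in neural tube closure and axon guidance, had the lowest mean in HET. It read 7.32, 6.41, 7.09, 7.15 and 7.33 in WT, 5.54, 6.60, 7.13, 6.26 and 5.0 in HET, and 7.32, 7.14, 7.52, 6.82 and 6.70 in HOM. HET 5, HET 1 and HET 4 lay below every tumor of the other genotypes, while HET 2 and HET 3 fell inside the WT range. HET differed from WT by -0.96 (SE 0.338, 95% interval -1.68 to -0.23, unadjusted p 0.0132, adjusted p 0.273 by limma). HOM exceeded HET by 0.99 (SE 0.338, 95% interval 0.27 to 1.72, unadjusted p 0.0106, adjusted p 0.587). With epithelial and fibroblast marker means as covariates these differences were -0.78 and 0.72.

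Fzd9 and Fzd4 were the other Frizzled genes of wide range, 2.80 and 2.62. Fzd9 read 6.25, 8.71, 6.06, 6.60 and 6.66 in WT, 6.11, 5.91, 6.34, 6.57 and 6.56 in HET, and 6.36, 6.17, 6.34, 6.65 and 7.95 in HOM. Its range came from WT 2 and HOM 5, and the other 13 tumors read 5.91 to 6.66. HOM differed from WT by -0.16, by 0.30 without WT 2, and by -0.53 without the tumors labelled WT 5 and HOM 5. Fzd4, which also serves as the receptor of Norrin in retinal vessels, read 7.27, 7.98, 8.88, 8.19 and 8.06 in WT. In HET it read 8.12, 8.42, 8.30, 9.88 and 7.26, and in HOM 8.35, 7.93, 7.61, 9.0 and 8.98. HET 4 was the highest tumor and HET 5 the lowest, so the widest gap lay inside a single genotype. The means, 8.08 ± 0.575, 8.40 ± 0.946 and 8.37 ± 0.621 (n = 5 each), differed by less than that spread. HOM differed from WT by 0.30, and by 0.14 without the tumors labelled WT 5 and HOM 5.

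The remaining tested Frizzled genes also varied most within HET. Fzd6, a polarity receptor of epithelia, read 7.72 in HET 1 against 9.47 to 9.90 in the other HET tumors and 9.28 to 9.74 in WT. Fzd7, prominent in the mammary epithelium, had means of 10.48 ± 0.697, 9.92 ± 0.929 and 10.43 ± 0.163 in WT, HET and HOM, with HET 1 lowest at 8.95 and WT 1 at 9.28. Fzd5 was lowest in HET 1 at 7.32 and highest in HET 5 at 9.89. The interval of the HET difference from WT was -0.91 to 0.47 for Fzd6, -1.41 to 0.30 for Fzd7 and -1.0 to 0.64 for Fzd5. Fzd1, Fzd2 and Fzd8 were all highest in HET 4, at 9.58, 9.03 and 7.87. Their WT ranges were 7.99 to 8.80, 7.07 to 7.97 and 6.57 to 7.56. The HET means exceeded the WT means by 0.36, 0.12 and 0.11, with adjusted p-values of 0.521, 0.885 and 0.868 by limma. Untested Fzd10 read 6.08 in WT 1 and at most 5.33 elsewhere.

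Both Lrp co-receptors, which pass the ligand's signal to the Axin complex, had a lower mean in HET than in WT under each array scaling tried, with neither called. Lrp5 read 10.52, 11.25, 10.85, 11.27 and 10.86 in WT, 10.34, 10.33, 10.85, 10.12 and 10.76 in HET, and 10.95, 10.65, 10.98, 10.72 and 10.51 in HOM. HET 1, HET 2 and HET 4 lay below every WT tumor and HET 3 and HET 5 among them. HET differed from WT by -0.47 (SE 0.175, 95% interval -0.85 to -0.10, unadjusted p 0.0175, adjusted p 0.29 by limma), 1.39-fold lower. Lrp6 averaged 11.10 ± 0.256, 10.79 ± 0.194 and 10.99 ± 0.293, and HET differed from WT by -0.30 (adjusted p 0.413). A second, dimmer Lrp6 cluster gave -0.17 for that comparison and -0.01 for HOM against HET, where the brighter cluster gave 0.19.

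The R-spondins, secreted amplifiers of Wnt signals, stayed within narrow ranges where they were tested. Rspo2 (5.29 to 5.80) and Rspo4 (5.51 to 6.02) lay near the array medians of 5.54 to 5.73. At that level a narrow range cannot tell steady expression from weak signal. Rspo1, which acts beside Wnt4 in the mammary gland, averaged 6.64 ± 0.0992, 6.81 ± 0.245 and 6.77 ± 0.111. Rspo2 read 5.66, 5.65, 5.69, 5.58 and 5.62 in WT, 5.59, 5.73, 5.67, 5.80 and 5.70 in HET, and 5.56, 5.29, 5.59, 5.69 and 5.40 in HOM. The HOM values reached lower than the rest and still overlapped both, with a difference from WT of -0.13 (unadjusted p 0.168, adjusted p 1 by limma). Rspo4, known from nail growth, read 5.92, 5.80, 5.64, 5.85 and 5.75 in WT, 5.98, 5.85, 6.01, 5.97 and 6.02 in HET, and 5.57, 5.96, 5.93, 5.51 and 5.72 in HOM. HOM differed from HET by -0.23 (SE 0.105, unadjusted p 0.0485, adjusted p 0.626). Rspo3, a stromal and endothelial R-spondin, read 7.88 in HET 4 and 5.19 to 6.03 in the other tumors, and was not tested.

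Lgr4, the broadly expressed R-spondin receptor needed for mammary development, showed the clearest separation of the set. It read 11.58, 11.47, 11.04, 11.15 and 10.66 in WT, 9.11, 9.93, 10.46, 9.20 and 10.05 in HET, and 10.29, 10.31, 10.49, 10.21 and 10.83 in HOM. Every HET tumor lay below every WT tumor, and in HOM only the tumor labelled HOM 5 reached above the lowest WT value, that of WT 5. The 250 bases before its annotated start are shown because Lgr4 had the smallest p of the set, although it was not called. The sequence is from RefSeq, build GRCm38.p6, chr2:109917397-109917646, plus strand, with CCAAT or its reverse complement ATTGG in capitals.
Lgr4: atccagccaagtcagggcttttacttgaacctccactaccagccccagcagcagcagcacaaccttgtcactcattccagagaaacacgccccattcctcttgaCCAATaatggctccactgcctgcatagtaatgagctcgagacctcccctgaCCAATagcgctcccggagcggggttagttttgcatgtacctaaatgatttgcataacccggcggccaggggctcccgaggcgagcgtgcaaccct
The window holds CCAAT 2 times, a motif found on either strand in 33.8% of 32851 windows of the same 250 bases before a start and in 35.7% of the 28 windows of 25 members that matched. It holds no match to the core of Tcf and Lef sites, CTTTGA or CTTTGT on either strand, which 27.6% of all windows and 17.9% of the members' windows hold. These are matches of letters only.

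Lgr4 means were 11.18 ± 0.364, 9.75 ± 0.58 and 10.43 ± 0.245 in WT, HET and HOM (n = 5 each). HET differed from WT by -1.43 (SE 0.253, 95% interval -1.97 to -0.89), 2.69-fold lower, with an unadjusted p of 5.76e-05 and an adjusted p of 0.137 by limma. Over 26 other settings the difference stayed between -1.61 and -1.26 and the adjusted p ran from 0.0222 to 0.451. It passed the threshold in 1 of them, without HET 3, where the difference was -1.61. HET 3 held the highest Lgr4 value of the HET tumors, 10.46, so leaving it out widens the difference. It is also the tumor with the muscle signal, whose part was not tested. HOM differed from WT by -0.76 (95% interval -1.30 to -0.21, unadjusted p 0.00978, adjusted p 1) and from HET by 0.67 (95% interval 0.13 to 1.22, unadjusted p 0.0184, adjusted p 0.587). Without the tumors labelled WT 5 and HOM 5 these 3 differences were -1.56, -0.98 and 0.57, with adjusted p-values of 0.095, 0.881 and 0.545. HET had the lowest mean and HOM lay between, so the order of means did not follow the number of floxed alleles, with no step of it called.

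Lgr4 was lowest in HET 1 and HET 4, at 9.11 and 9.20, the tumors with the lowest epithelial marker means, 7.46 and 9.14. In HET 2, HET 3 and HET 5 the epithelial means were 10.05, 10.40 and 10.71 and Lgr4 read 9.93, 10.46 and 10.05. With the epithelial and fibroblast marker means as covariates the difference of HET from WT was -1.26 (adjusted p 0.156 by limma). The part of tissue composition in the Lgr4 difference was not tested.

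Lgr6, a marker of progenitor cells in skin and in the mammary gland, read 11.06, 10.01, 7.84, 8.76 and 8.47 in WT. It read 10.02, 9.82, 8.73, 9.13 and 8.92 in HET and 7.57, 8.27, 8.56, 8.86 and 8.53 in HOM. HOM tumors were at the low end, and 2 WT tumors, WT 1 and WT 2, stood above all HOM tumors while the others lay among them. HOM differed from WT by -0.87 (95% interval -1.96 to 0.21, adjusted p 1 by limma) and by -0.41 without WT 1. From HET it differed by -0.96 (95% interval -2.05 to 0.12, adjusted p 0.648), and by -0.48 with epithelial and fibroblast marker means as covariates.

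Lgr5, the stem cell receptor of gut and hair follicle, varied as widely inside each genotype. It read 8.28, 6.08, 6.43, 7.98 and 6.91 in WT, 6.36, 5.90, 5.83, 8.66 and 5.11 in HET, and 7.53, 5.89, 5.12, 6.51 and 7.51 in HOM. HET 4 held the highest value and HET 5 the lowest. The interval of the HET difference from WT was -2.18 to 0.66, with an adjusted p of 0.625 by limma. Without HET 4 the difference went from -0.76 to -1.33 (95% interval -2.53 to -0.14, unadjusted p 0.0312, adjusted p 0.489). HOM differed from WT by -0.62, and by -0.93 without the tumors labelled WT 5 and HOM 5. A second, dimmer Lgr5 cluster read 5.19 to 5.53 and lay above the array median in 0 tumors. It gave 0.05 for HET against WT and 0.01 for HOM against WT.

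**Figure D3:**
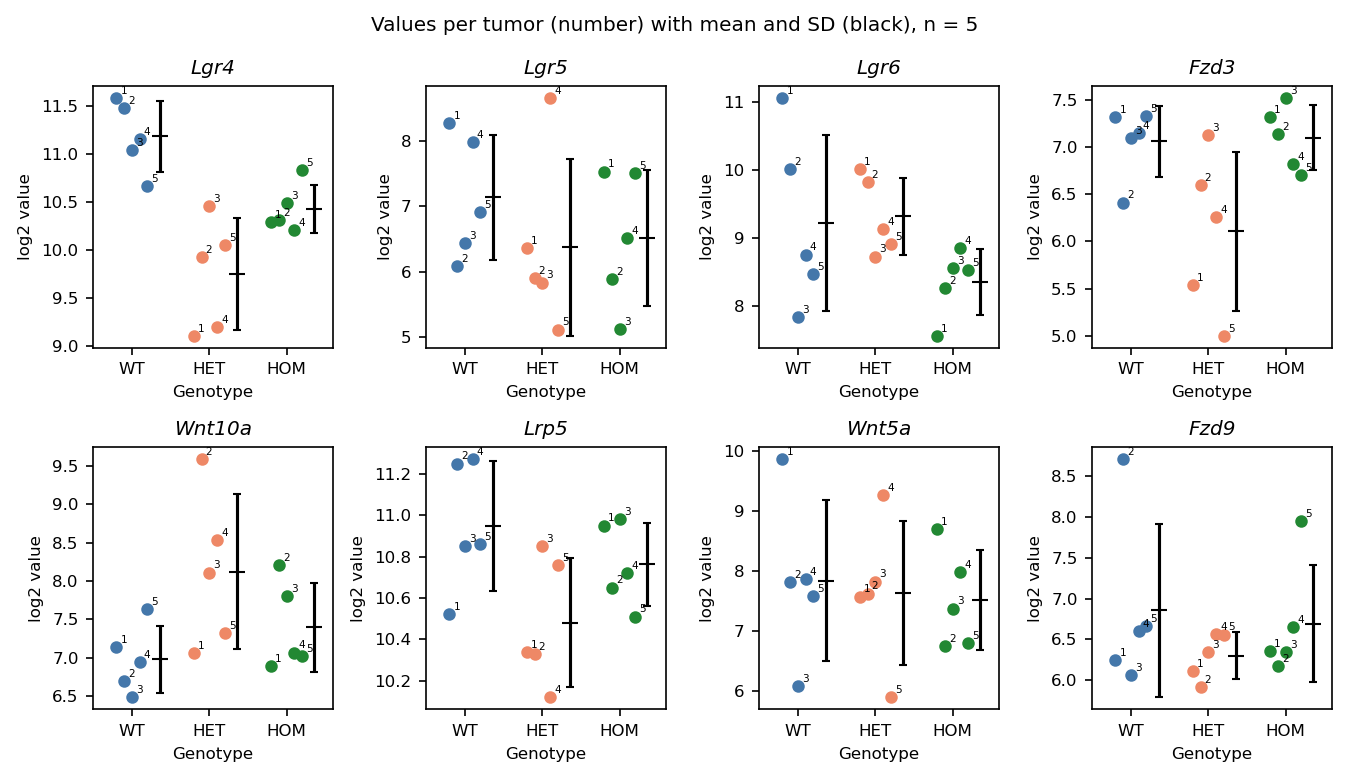
Log2 value of the named members in each tumor, with points for tumors, by genotype, and bars for the mean and SD (n = 5). Every HET tumor of Lgr4 lies below every WT tumor, whereas single tumors such as HET 2 for Wnt10a and WT 2 for Fzd9 set the spread of other genes.

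Much of the variation in the set sat in a few HET tumors. HET 4 was the highest of the 15 tumors for 10 of the 31 tested members (32.3%), where it was highest for 9.83% of all genes tested. These were Wnt2, Wnt2b, Wnt7a, Wnt9a, Fzd1, Fzd2, Fzd4, Fzd8, Rspo2 and Lgr5. HET 1 was the lowest for 9 members (29%, against 13.9% of all genes): Wnt4, Wnt6, Wnt7a, Wnt11, Fzd2, Fzd5, Fzd6, Fzd7 and Lgr4. HET 2 was highest for 5 members (16.1%, against 7.46% of all genes), Wnt3a, Wnt4, Wnt10a, Wnt11 and Fzd6. HET 5 was highest for 5 (16.1%, against 7.95% of all genes), Wnt7b, Fzd5, Fzd7, Rspo1 and Rspo4. It was also the lowest tumor for 5 members (16.1%, against 5.83% of all genes). Each gene has a single highest tumor, so the lists of genes highest in HET 4, HET 2 and HET 5 cannot share a gene. Of the genes lowest in HET 1, Wnt4, Wnt7a, Wnt11, Fzd2, Fzd5, Fzd6 and Fzd7 also stand in those lists. The SD was largest in HET for 20 of 31 members (64.5%, against 45.9% of all genes), and the median SD over members was 0.353, 0.58 and 0.245 for WT, HET and HOM, beside 0.287, 0.308 and 0.245 over all genes.

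Members were then set against the mean of 4 cell type marker lists across the 15 tumors, 124 pairs in all, with permutation tests adjusted by Benjamini-Hochberg over those pairs. All tumors share a platform, and the genotypes are pooled. Of the pairs, 10 passed an adjusted p of 0.05.

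Fibroblast markers moved with 4 members, Fzd4, Wnt2b, Wnt9a and Fzd1. Fzd4 had a Pearson r of 0.91 (permutation p 1e-05, the smallest that 100000 permutations can give, adjusted 0.00124) and a Spearman rho of 0.77 (permutation p 0.00124). Without HET 4 and HET 5, the tumors farthest from the median, r was 0.82. Wnt2b had r = 0.80 (permutation p 0.0001, adjusted 0.0062), rho = 0.79 (permutation p 0.0006), and r = 0.68 without them. For both genes most of the relation was still there without the extreme tumors. Apart from HET 4, however, Wnt2b read 5.35 to 6.25, close to the array medians of 5.54 to 5.73. Wnt9a had r = 0.79 (permutation p 0.00069, adjusted 0.0244), rho = 0.66 (permutation p 0.00905), and r = 0.64 without HET 4 and HET 5. Fzd1 had r = 0.78 (permutation p 0.00116, adjusted 0.0244), rho = 0.54 (permutation p 0.0398), and r = 0.48 without both tumors. Refitted without HET 4 alone, 1 member passed with the fibroblast markers in place of 4. With the genotype means removed, r was 0.91 for Fzd4, 0.80 for Wnt2b, 0.81 for Wnt9a and 0.79 for Fzd1. Endothelial markers were not among the 4 lists. Their mean was also highest in HET 4 (9.95) and lowest in HET 5 (7.24), and its relation to these members was not tested.

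The windows before the starts of Fzd4 and Fzd1 are shown as the Frizzled genes of that group, from RefSeq, build GRCm38.p6. Fzd4 is at chr7:89404116-89404365 on the plus strand and Fzd1 at chr5:4758217-4758466 on the minus strand, each printed in the direction of the gene. Capitals mark CCAAT or ATTGG in Fzd4 and the Tcf and Lef core or its reverse complement (TCAAAG or ACAAAG) in Fzd1.
Fzd4: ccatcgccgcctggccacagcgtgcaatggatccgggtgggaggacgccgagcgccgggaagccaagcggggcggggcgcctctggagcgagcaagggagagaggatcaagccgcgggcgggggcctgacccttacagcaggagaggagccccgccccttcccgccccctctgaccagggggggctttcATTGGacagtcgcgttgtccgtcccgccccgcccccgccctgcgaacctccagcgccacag
Fzd1: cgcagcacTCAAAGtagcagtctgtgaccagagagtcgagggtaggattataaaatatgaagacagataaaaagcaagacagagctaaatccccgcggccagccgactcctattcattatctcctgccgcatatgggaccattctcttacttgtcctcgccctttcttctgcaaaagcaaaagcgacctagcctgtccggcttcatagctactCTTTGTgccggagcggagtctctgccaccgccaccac
The Fzd4 window has 72.8% G and C and 1 CCAAT match, with 0 matches to the Tcf and Lef core. That of Fzd1 has 51.2% G and C, 2 core matches and 0 CCAAT matches. The pair that moved with the same markers therefore shares neither motif in these windows.

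**Figure D4:**
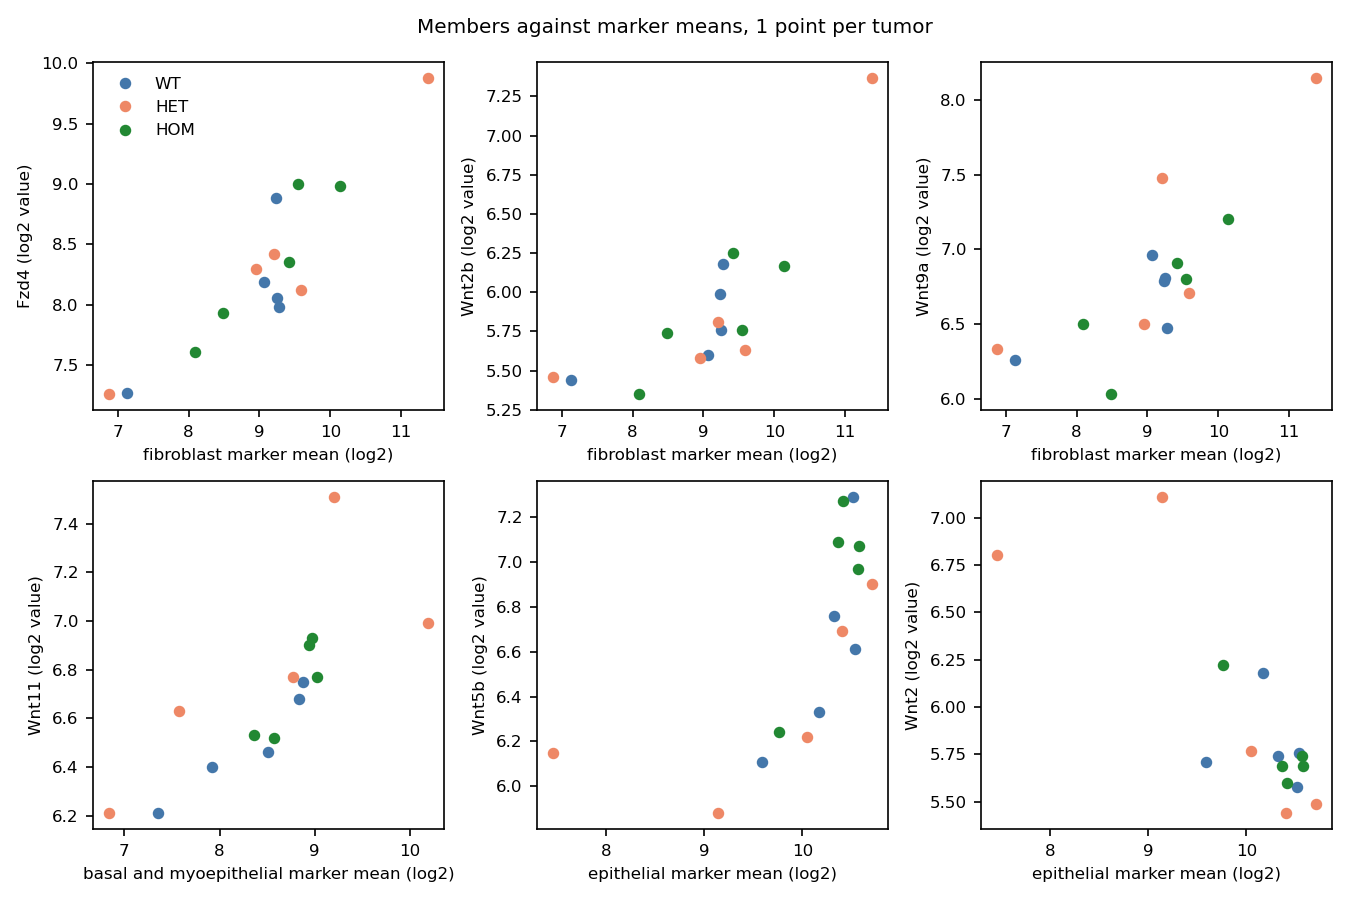
Log2 value of members (vertical axes) against the mean log2 value of a cell type marker list (horizontal axes), with a point for each of the 15 tumors coloured by genotype. Fzd4 and the fibroblast mean have a Pearson r of 0.91, with HET 4 at the top and HET 5 at the bottom.

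Epithelial markers moved with 3 members. Wnt5b had r = 0.66 (permutation p 0.00086, adjusted 0.0244), rho = 0.77 (permutation p 0.00113), and r = 0.79 without HET 1 and HET 4. Wnt2 ran the other way, with r = -0.80 (permutation p 0.00358, adjusted 0.0445), rho = -0.69 (permutation p 0.00526), and r = -0.55 without them. Apart from HET 1 and HET 4, Wnt2 read 5.44 to 6.22, close to the array medians of 5.54 to 5.73. Fzd7 had r = 0.69 (permutation p 0.00359, adjusted 0.0445) and rho = 0.60 (permutation p 0.0191), but r = 0.30 without HET 1 and HET 4, so its relation rests on those tumors. With genotype means removed, the adjusted permutation p was 0.078 for Wnt5b and Fzd7 and 0.0168 for Wnt2. Fzd6 had the largest epithelial r, 0.85, but did not pass (adjusted permutation p 0.0613). Its r was 0.51 without HET 1 and HET 4. With genotype means removed, the r of Fzd6 was 0.88 and passed (adjusted permutation p 0.00899). The count of 3 was not stable: leaving out 1 tumor gave 1 member for WT 3, WT 4, WT 5, HET 2, HET 3, HET 4, HOM 2, HOM 3 or HOM 4, and 0 for HOM 1.

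Basal and myoepithelial markers moved with Wnt11 at r = 0.77 (permutation p 0.00118, adjusted 0.0244) and rho = 0.91 (permutation p 1e-05). Without HET 1 and HET 4, r was 0.74. The list as chosen holds keratins such as Krt5 and contractile genes such as Acta2 and Myh11. Its mean was highest in HET 4 (10.19), as were the fibroblast (11.38) and endothelial (9.95) means. Which cells hold the contractile genes was not tested. Leukocyte markers moved with Fzd4 at r = 0.70 (permutation p 0.00352, adjusted 0.0445; rho = 0.68, permutation p 0.00665) and inversely with Wnt6 at r = -0.71 (permutation p 0.00177, adjusted 0.0314; rho = -0.64, permutation p 0.0132). Without WT 1 and HET 1, r was 0.78 for Fzd4 and -0.50 for Wnt6. Wnt6 lay above the array median in only 7 tumors. Lgr4 passed with none of the 4 lists; its r was 0.53 with epithelial markers and -0.56 with leukocyte markers (adjusted permutation p 0.179 and 0.145). With genotype means removed, the leukocyte r of Lgr4 was -0.75 and passed (adjusted permutation p 0.0205). Without WT 1 and HET 1 its r, genotype means kept, was -0.25. The epithelial r was -0.42 without HET 1 and HET 4. Without 1 tumor the basal count of 1 ran from 0 (WT 1 or HOM 1) to 5 (HET 1). The leukocyte count of 2 fell to 0 without WT 1, WT 5, HET 2, HET 4, HOM 1 or HOM 3, to 1 without WT 2, WT 3, WT 4, HET 1, HET 3, HET 5 or HOM 2, and was 3 without HOM 5.

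**Figure D5:**
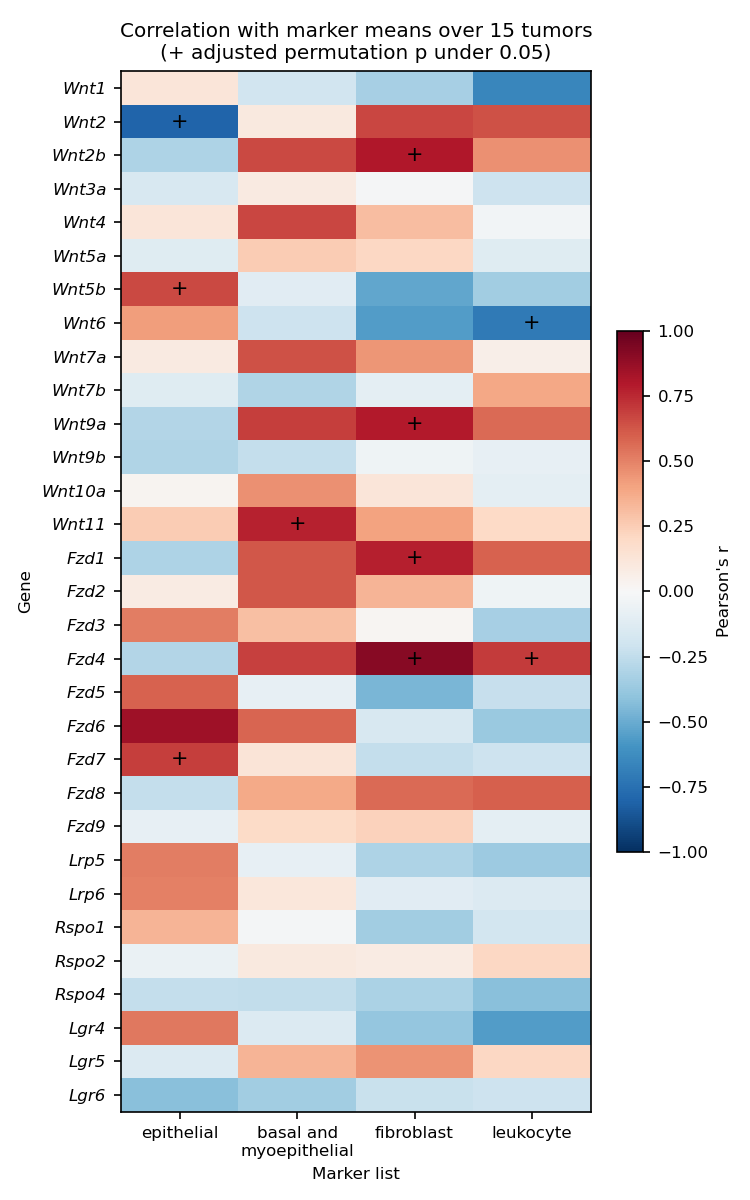
Pearson r over 15 tumors of each tested member (rows) with the mean of the epithelial, basal and myoepithelial, fibroblast and leukocyte markers (columns). The 10 pairs that passed an adjusted permutation p of 0.05 are marked, 4 of them in the fibroblast column.

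Other genes of the pathway were read from 7 further lists by role, and none of their genes was called in any comparison. The secretion genes had 4 of 4 members tested, with 2 higher and 2 lower means in HET than in WT. Porcn, the enzyme that attaches the lipid to Wnt proteins, had means of 8.35, 9.23 and 8.83 for WT, HET and HOM, and Tmed5 averaged 8.52, 8.98 and 8.64. Among the 12 tested of 15 secreted antagonists, which bind Wnts or their receptors, 10 had the higher mean in HET than in WT (median 0.18) and 11 the lower in HOM than in HET (median -0.35). Fibroblast markers were higher in HET than in WT for 12 of 13 (median 0.35) and endothelial markers for 10 of 10 (median 0.32), and their part was not tested. Dkk2 averaged 6.30, 7.22 and 6.27, with HET 1 at 9.69 and the other HET tumors at 5.74 to 7.38. Dkk3 averaged 7.74, 8.51 and 8.08, with HET 4 highest at 10.72.

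Of the 15 tested among 16 further receptors and modulators, 4 were higher and 11 lower in HET than in WT by mean (median -0.15). The ligases that R-spondins and Lgr receptors hold off were among the lower ones, with Rnf43 at 9.60, 8.01 and 9.08 and Znrf3 at 8.92, 7.95 and 8.09 in WT, HET and HOM (adjusted p 0.224 and 0.29 for HET against WT by limma). The 17 tested cytoplasmic components split 4 higher and 13 lower in HET than in WT (median -0.14), and the 13 tested nuclear effectors 2 higher and 11 lower (median -0.23). Over all genes the median was -0.03. The 12 tested planar polarity genes split 5 and 7, with Celsr2, a cadherin of that pathway, at 9.21, 8.0 and 9.23.

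Feedback targets, genes that beta-catenin signalling commonly turns on, mostly had lower means in the floxed genotypes. In HET 9 of 10 tested were lower than in WT (median -0.69), and in HOM 10 of 10 (median -0.39), with smallest adjusted p-values of 0.292 and 1 by limma. Epithelial markers were also lower in HET than in WT for 14 of 15 (median -0.60), and in HOM for 8 of 15 (median -0.03), while 45.5% and 47.2% of all genes had the higher mean in HET and HOM. Their part in the lower feedback targets was not tested. Axin2 had means of 7.80 ± 1.73, 6.95 ± 0.512 and 7.31 ± 0.192 in WT, HET and HOM, and Nkd1 7.82 ± 1.88, 6.47 ± 0.654 and 6.38 ± 0.393 (n = 5 each). The tumor WT 1 alone read 10.78 for Axin2 and 10.72 for Nkd1, where the other WT tumors read 6.48 to 7.73 and 6.07 to 8.36. All HOM tumors, at 7.11 to 7.55, lay inside that Axin2 range, so the lower HOM mean of Axin2 rests on WT 1. The HET tumors read 6.54 to 7.81 for Axin2, and none lay below that range either. How many feedback targets stay lower without WT 1 was not tested. WT 1 was the highest tumor for 5 members, Lgr4, Lgr6, Wnt5a, Wnt6 and Wnt1 (16.1%), and for 17% of all genes tested. Nkd2 averaged 11.51, 10.05 and 11.24, and Tnfrsf19 9.42, 7.73 and 8.93, both lowest in HET by mean as Lgr4 was. In HET, Nkd2 was lowest in HET 1 at 7.75 and HET 4 at 9.22, the tumors with the lowest epithelial means.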

How the data were processed

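Each tumor gave 100 ng of total RNA for Affymetrix whole-transcript labelling, per the labels' protocols, and 1 array. The authors deposited log2 values for 41345 transcript clusters. They used Affymetrix Expression Console as well as the Transcriptome Analysis Console, per the submitters' processing notes. How they corrected background and normalized is stated in no source used here, and the log2 scale was read from the range of 1.06 to 13.91. Array medians were 5.54 to 5.73. Clusters with 1 symbol in the platform annotation were kept, the brightest per gene, giving 22180 genes. Genes above the array median on at least 5 arrays (14243) were fitted with lmFit and eBayes of limma 3.58.1 under R 4.3.3 (3 genotypes together, 12 residual degrees of freedom, two-sided, Benjamini-Hochberg over all genes tested, threshold 0.05). Correlations used two-sided permutation tests with 100000 resamples. The fit was tested on simulated data. Promoter windows came from RefSeq GRCm38.p6.

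Values of every tumor are given for the 4 tested members with the smallest p in each comparison and the 6 with the largest range. Pathway genes named are drawn from the 2 smallest p per list and comparison, with Axin2, Nkd1 and Ctnnb1. Members whose single tumors stood apart are given by that tumor's value, and further tumor values were named after they were seen. Members, lists and settings were chosen with earlier results of these data known. Alternatives were other filters, scalings, cluster choices, model options, marker covariates and leaving out tumors. The number of arrays limits the precision, and no detection calls were used.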

Additional observations from a re-analysis of the deposited data

Results flagged for a closer look

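Single tumors stood apart from the other 4 of their genotype by Dixon's criterion in 11 of 93 sets of tested members, where chance gives about 1 in 20, or 4.65. HOM 5, the homozygous tumor with WT-like Ctnnb1, accounted for 5 of them. It read 6.22 for Wnt2 (others 5.60 to 5.74), 6.24 for Wnt5b (6.97 to 7.27), 6.27 for Wnt9b (5.79 to 5.91), 8.85 for Fzd6 (9.49 to 9.56) and 7.95 for Fzd9 (6.17 to 6.65). WT 1 read 6.63 for Wnt6 (5.39 to 5.69) and 9.28 for Fzd7 (10.67 to 11.09). WT 2 read 6.41 for Fzd3 (7.09 to 7.33) and 8.71 for Fzd9 (6.06 to 6.66). HET 4 read 7.37 for Wnt2b (5.46 to 5.81), and HET 1 read 7.72 for Fzd6 (9.47 to 9.90).

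Among untested members, 3 of 21 sets held such a tumor: Fzd10 was 6.08 in WT 1 (3.83 to 4.39), and Rspo3 was 7.88 in HET 4 (5.46 to 5.96) and 6.03 in HOM 5 (5.30 to 5.46). Among marker list means, 5 of 27 sets did. The epithelial mean was 9.76 in HOM 5 (10.36 to 10.58), and the fibroblast mean was 7.13 in WT 1 (9.07 to 9.28). B and plasma cell markers averaged 9.90 in HET 1 (5.37 to 6.19), and skeletal muscle markers 11.52 in HET 3 (5.99 to 6.93). Adipocyte markers averaged 7.10 in WT 1 (6.96 to 7.00), a small gap in a narrow range.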

How the results depend on the processing

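Lgr4 kept its lower mean in HET and HOM than in WT under every setting tried, and no member was called other than Lgr4 without HET 3. Among the named differences, 288 values under settings other than single left-out tumors kept direction and side of the threshold and 8 reversed. Those were Wnt5a with array weights (0.11, 0.24 and 0.13 for HET against WT, HOM against WT and HOM against HET), Lgr6 in HET against WT (-0.19 with marker covariates, -0.10 without WT 5 and HOM 5), and, in HOM against HET, Wnt5a (0.06) and Lgr5 (-0.11) without WT 5 and HOM 5 and Lgr5 (-0.04) without HET 1 and HET 3. Genes called in HET against WT numbered 2, and 0 with the 75th percentile filter or array weights, 1 with quantile normalization or only the 2 genotypes, and 10 without HET 1 and HET 3. In HOM against WT they numbered 0, and 2 without WT 5 and HOM 5; in HOM against HET 0, and 4 without those or 1 without HET 1 and HET 3. With the 75th percentile filter, 13 members were tested, of which 6, 4 and 6 were higher in these comparisons, with a median of -0.18 for HET against WT; fewer genes are tested there. Members correlated with epithelial markers numbered 1 with that filter and 1 without WT 5 and HOM 5. For basal markers they numbered 6 with genotype means removed, 0 with the filter, 2 without WT 5 and HOM 5 and 4 without HET 1 and HET 3. Fibroblast markers gave 2 with the filter, and leukocyte markers 5 with genotype means removed and 1 with the filter, with median centring or without HET 1 and HET 3. Leaving out each tumor in turn gave 1 to 49 genes called in HET against WT (49 without HET 3, 18 without HET 5), 0 to 3 in HOM against HET, and 0 to 1 members called in HET against WT, whose median ran from -0.05 (without HET 4) to 0.12. Correlated members numbered 0 to 3 (epithelial), 0 to 5 (basal), 1 to 5 (fibroblast, 1 without HET 4) and 0 to 3 (leukocyte). Differences that changed sign ran from -0.65 to 0.30, -0.76 to 0.18 and -0.55 to 0.29 for Wnt5a in the 3 comparisons, -0.25 to 0.55 for Lgr6 and -0.05 to 0.60 for Fzd4 in HET against WT, -0.31 to 0.35 for Fzd4 and -0.17 to 0.71 for Lgr5 in HOM against HET, and -0.48 to 0.30 for Fzd9 in HOM against WT. Without WT 5 and HOM 5, further named differences that moved by over 1.5 times were Wnt5b in HET against WT (-0.08 from -0.25), Fzd3 (0.20 from 0.04) and Wnt5a (-0.21 from -0.32) in HOM against WT, and Fzd9 (0.08 from 0.39), Fzd4 (-0.17 from -0.02) and Wnt9b (-0.14 from -0.05) in HOM against HET. Beyond those shown by construction, the cause was not tested. No paired analysis was possible because replicate numbers follow accession order.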
